A study of Mus musculus with 2 samples.

Results

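The genes described here are 7 transcription factors on the panel of a spatial transcript imaging experiment in mouse intestine: the nuclear receptors Ppard, Nr5a2, Nr6a1 and Thrb, and the factors Hes1, Sox6 and Zeb2. They were taken by name, as 7 of the 140 genes on the panel. The experiment used MERSCOPE, in which transcripts of a chosen panel are read as optical barcodes in a fixed tissue section and assigned to cells outlined by a boundary stain. The sections came from 2 C57Bl6 mice with no treatment named, 1 male (replicate 1) and 1 female (replicate 2), aged 6 to 10 weeks and kept on standard chow. Duodenum and colon of each animal were imaged together in sections 10 µm thick. The files give 2 regions per animal, numbered 0 and 1, without naming the segment of gut in either, so regions are called by animal and number throughout. The panel also carried 40 blank barcodes, which match no gene and show how often a barcode is read by error. The groups therefore share strain and diet, and differ by animal and sex. Any difference in handling or imaging between the 2 animals cannot be told apart from animal and sex.

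A nuclear receptor is a transcription factor with a pocket for a small molecule, and binds DNA alone or with a partner receptor. Ppard encodes the peroxisome proliferator-activated receptor delta, a sensor of fatty acids that drives genes of fatty acid oxidation, and is known in the gut for its part in stem cell and enterocyte metabolism. Nr5a2 encodes LRH-1, a receptor of epithelial crypts that takes part in steroid and bile acid metabolism and in crypt renewal. Thrb encodes thyroid hormone receptor beta, and Nr6a1 encodes germ cell nuclear factor, known mainly from embryos and germ cells. Hes1 is a repressor switched on by Notch signalling and favours absorptive over secretory cells in the crypt. Sox6 is an HMG-box factor of several mesenchymal and neural lineages, and Zeb2 is a repressor of the TGF-beta pathway that acts in mesenchyme and in the neural crest, from which enteric neurons and glia arise.

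In the mouse genome (GRCm38.p6, RefSeq annotation) Ppard lies on chromosome 17, Nr5a2 on 1, Nr6a1 and Zeb2 on 2, Thrb on 14, Hes1 on 16 and Sox6 on 7. Promoter windows were found for 6 of the 7 genes, and Hes1 had no entry. The 250 bases upstream of the gene start are shown for Ppard and Zeb2, the pair called in opposite directions in the cells with the most Aqp8 and Slc26a3 counts described below. They are written 5′ to 3′ on the gene's strand with each CpG in capitals.
Ppard chr17:28232504-28232753 (plus strand): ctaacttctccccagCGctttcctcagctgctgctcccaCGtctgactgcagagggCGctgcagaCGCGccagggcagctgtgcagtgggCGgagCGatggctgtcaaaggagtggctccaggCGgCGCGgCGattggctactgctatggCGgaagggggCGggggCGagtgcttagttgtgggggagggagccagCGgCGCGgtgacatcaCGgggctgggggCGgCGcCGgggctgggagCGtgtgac
Zeb2 chr2:45117443-45117692 (minus strand): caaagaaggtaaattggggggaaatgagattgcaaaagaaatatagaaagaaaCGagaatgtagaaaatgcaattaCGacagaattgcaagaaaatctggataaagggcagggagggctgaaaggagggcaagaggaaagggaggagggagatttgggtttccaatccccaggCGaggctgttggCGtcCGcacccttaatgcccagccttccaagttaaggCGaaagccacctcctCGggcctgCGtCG
The Ppard window holds 22 CpG and 69.6% G and C, and the Zeb2 window holds 9 CpG and 49.6% G and C. The median over 32536 mouse promoter windows of the same length is 6 CpG and 52.4%. Neither window holds AGGTCA, the nuclear receptor half-site, CACCTG, a site of ZEB factors, CACNAG, a site of HES factors, or AACAAT, a SOX site, on either strand. These occur in 14.04%, 17.3%, 36.7% and 9.35% of all windows, and their absence says only that these letters are not in these 250 bases.

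Most of what could be measured came from 1 region. The tables hold 31893 cells and 53860 panel counts in all, of which female region 1 gave 13707 cells and 45942 counts, and the other 3 regions gave 582 to 4288 counts each. The highest blank barcode reached 9 and 2 counts in the male regions 0 and 1, and 33 and 46 in the female regions 0 and 1. No cell identifier was shared between regions. Levels are given as counts per 10000 panel counts with exact 95% Poisson intervals, ratios carry exact 95% binomial intervals, and both cover counting error only. Probe sets differ between genes, so no gene's level is set against another's.

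Ppard was detected above background in 3 of the 4 regions. It gave 10 counts in male region 0, 9 in male region 1, 16 in female region 0 and 440 in female region 1. These correspond to 32.8 (15.7 to 60.3), 155 (70.7 to 294), 37.3 (21.3 to 60.6) and 95.8 (87.0 to 105) per 10000. It lay above the highest blank in both male regions and in female region 1. In female region 0 its 16 counts were below the 33 counts of the highest blank, and 3 of the 40 blanks were at or above it. In female region 1 its counts lay in 395 cells, with at most 3 in a cell.

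Nr5a2 gave 13, 5, 7 and 71 counts in male region 0, male region 1, female region 0 and female region 1, or 42.7, 85.9, 16.3 and 15.5 per 10000. Like Ppard, it passed the highest blank in both male regions and in female region 1 and not in female region 0. Thrb gave 8, 4, 3 and 82 counts in the same order, or 26.2, 68.7, 6.996 and 17.8 per 10000, and exceeded every blank in region 1 of both animals. Nr6a1 gave 5, 0, 6 and 28 counts and passed the highest blank in no region, so that its counts cannot be told from misread barcodes anywhere in these sections.

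Hes1, Sox6 and Zeb2 exceeded every blank in female region 1 but in none of the remaining 3 regions. Hes1 gave 3, 2, 3 and 57 counts, which is 12.4 per 10000 (9.40 to 16.1) in female region 1. Sox6 gave 2, 0, 4 and 72 counts, which is 15.7 per 10000 (12.3 to 19.7) there. Zeb2 gave 5, 0, 7 and 115 counts, which is 25.03 per 10000 (20.7 to 30.0) there. The absence of Sox6, Zeb2 and Nr6a1 from male region 1 is no evidence of a low level, because 3 counts in that region already amount to 51.5 per 10000.

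**Figure D1:**
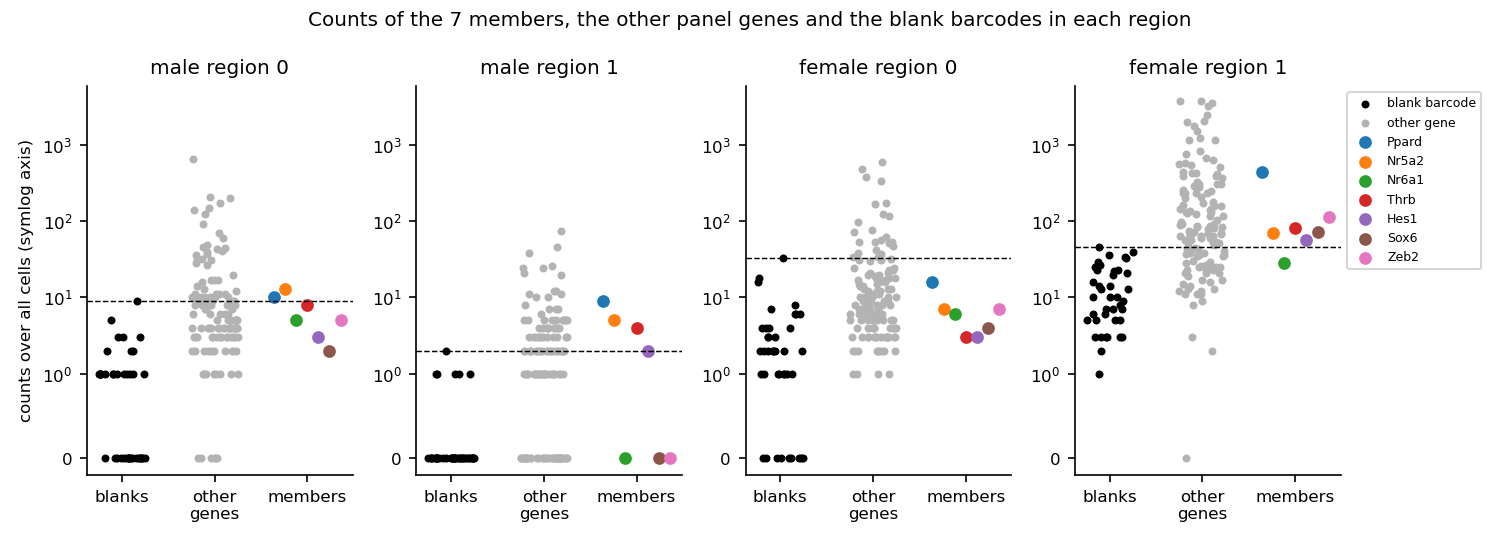
Counts of each of the 7 genes (coloured), the other panel genes (grey) and the 40 blank barcodes (black) in each region, on an axis that is linear below 1 and logarithmic above. The dashed line is the highest blank, and 6 of the 7 genes lie above it in female region 1 against 0 of 7 in female region 0.

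Counted over the set, 2 of 7 genes passed the highest blank in male region 0, 3 in male region 1, 0 in female region 0 and 6 in female region 1. Of all 140 panel genes, 32.9%, 37.9%, 16.4% and 66.4% passed it in those regions. By the looser mark of the blanks' mean plus 3 SD, 3, 4, 0 and 6 of the 7 passed, beside 47.1%, 53.6%, 22.1% and 65% of the panel. The region in which most of the 7 passed was also that in which most of the panel passed, and 71.8% (Nr6a1) to 92.6% (Ppard) of each gene's counts came from female region 1.

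Between the animals, Ppard was at 52.3 per 10000 in the male and 90.8 in the female, with a mean of 71.6 ± 27.2 (SD, n = 2). The female to male ratio was 1.73 (1.10 to 2.91). It was 0.713 (0.343 to 1.46) when female region 1 was left out, so the direction rests on that region. Nr5a2 went the other way, at 49.6 in the male and 15.5 in the female, with a ratio of 0.313 (0.186 to 0.556). Per cell rather than per panel count, Nr5a2 was higher in the female, by 2.56 times (1.52 to 4.54), and Ppard by 14.2 times. The intervals of the other 5 genes included 1, with ratios of 0.491 for Nr6a1, 0.512 for Thrb, 0.867 for Hes1, 1.76 for Zeb2 and 2.75 for Sox6. Without female region 1 the interval of Thrb no longer included 1, at 0.212 (0.0383 to 0.784), and Nr6a1 was at 1.02 (0.258 to 4.21). Per cell, all 7 ratios were above 1 with intervals that left it out. With 1 animal of each sex, sex and animal cannot be told apart and no test was possible.

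Within the animals, Ppard was higher in region 1 than in region 0 of both. The ratio per panel count was 2.57 (1.56 to 4.53) in the female and 4.71 (1.69 to 12.9) in the male. The female ratio rests on 16 counts in region 0, under the highest blank of 33 there. The male ratio rests on 9 and 10 counts, and per cell it was 1.72 (0.618 to 4.71). In the male cells with at least 10 panel counts, Ppard had 4 counts in 55 cells of region 0 and 0 in 4 cells of region 1, which cannot show a difference. Per panel count, the intervals of the other 6 genes included 1 in both animals. Per cell they included 1 in the male, and in the female only for Nr6a1, at 2.16 (0.877 to 6.38). The remaining genes were higher per cell in female region 1, from 4.69 (Nr5a2) to 12.6 (Thrb).

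To see where in the tissue each gene was counted, cells were grouped by marker genes on the panel. Aqp8, a water channel, and Slc26a3, a chloride and bicarbonate exchanger, mark absorptive surface epithelium. Cftr, a chloride channel, and Kcnn4, a potassium channel, mark crypt epithelium, Des (desmin) marks smooth muscle, and Fn1, Vim and Pdgfra mark fibroblasts. In female region 1, 650 cells had 3 or more Aqp8 and Slc26a3 counts, 1135 had 1 to 2 and 11922 had 0. A further rule gave 473 cells with a Cftr or Kcnn4 count, 264 with 2 or more Des counts and 584 with 3 or more Fn1, Vim and Pdgfra counts. The rules overlap, with 263 of the 2830 grouped cells meeting more than 1. The Cftr and Kcnn4 cells held 544 counts of their own markers beside 479 of Fn1, Vim and Pdgfra and 130 of Aqp8 and Slc26a3. The Des cells held 1014 Des counts beside 412 of Fn1, Vim and Pdgfra, so neither group is a pure cell type. The panel holds no marker from the lists used here for immune cells, interstitial cells of Cajal or endothelium, so those cells were not separated. A gene is called higher or lower here at a ratio of at least 2 either way with an interval without 1, among genes with at least 20 counts, as a description of 1 section and with no test.

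Ppard was higher in cells with Aqp8 and Slc26a3 and lower in the Des cells. It had 165 counts in the cells with 3 or more Aqp8 and Slc26a3 counts and 192 in the cells with 0, or 168 (143 to 195) against 81.9 (70.7 to 94.3) per 10000. The ratio of 2.05 (1.65 to 2.54) ranked 18 of 115 genes from the top, where 15.7% of genes were called higher and 42.6% lower. In the cells with 1 to 2 such counts, Ppard had 83 counts and 149 per 10000. That is a ratio of 1.82 (1.39 to 2.36), rank 10 of 111 genes and short of the 2-fold mark, in a comparison where 5.41% of genes were called higher and 9.91% lower. In the Des cells Ppard had 3 counts against 437 in the other cells, or 15.5 against 103 per 10000. The ratio of 0.150 (0.0309 to 0.442) was called lower beside 15% of 120 genes called lower and 17.5% higher, and these 3 counts lie under the highest blank of that group, at 8. At the other marker threshold for Des it was 0.428 (0.262 to 0.662), and per cell 0.350 (0.0718 to 1.03), where the interval included 1.

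Blank barcodes were higher in the Aqp8 and Slc26a3 cells as well. All 40 blanks together had 223 counts in the cells with 3 or more and 264 in the cells with 0, a ratio of 2.01 (1.68 to 2.42) per panel count, close to that of Ppard. A single blank reached 31 counts in those cells, and Ppard reached 165. With the median blank subtracted, the Ppard ratio was 2.08. The part of misread barcodes in the Ppard ratio was not tested. The cells also differed in depth, with a median of 19 panel counts per cell in the cells with 3 or more, 5 in those with 1 to 2 and 0 in those with 0. The cells with 3 or more held 5681 Aqp8 and Slc26a3 counts and 9831 other panel counts. Among the latter were 242 of Fn1, Vim and Pdgfra, 19 of Des, 8 of Cftr and Kcnn4, 57 of glial and 51 of neuronal markers. The cells with 0 held 4652, 1404, 465, 138 and 128 of these in 23448 panel counts. The cells with 1 to 2 held 763, 110, 71, 34 and 25 of these in 5580 panel counts, beside 1402 of Aqp8 and Slc26a3. Against the cells with 0, their ratio was 1.51 (1.25 to 1.81) for Pdgfra, 0.616 for Fn1 and 0.559 for Vim.

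Within bins of cell depth the Ppard ratio kept its direction. For the cells with 3 or more against those with 0, it was 1.80 (0.479 to 4.79) among cells of 1 to 4 panel counts and 2.66 (1.59 to 4.32) among cells of 5 to 9. It was 2.19 (1.40 to 3.43) among cells of 10 to 19 and 2.44 (1.38 to 4.65) among cells of 20 or more. The step lay between 0 and 1 count of the markers, and the cells with 1 to 2 also held many fibroblast-marker counts, as given above. Ppard was at 81.9 per 10000 at 0 counts, 147 at 1 and 153 at 2, and at 158 at 3 to 5, 171 at 6 to 10 and 171 at 11 or more, levels whose intervals overlap from 1 count on. Cells with 3 or more counts of Aqp8 alone (38 cells) and of Slc26a3 alone (35 cells) each held 6 Ppard counts, at 229 and 225 per 10000, and the 577 cells with both were at 164.

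**Figure D2:**
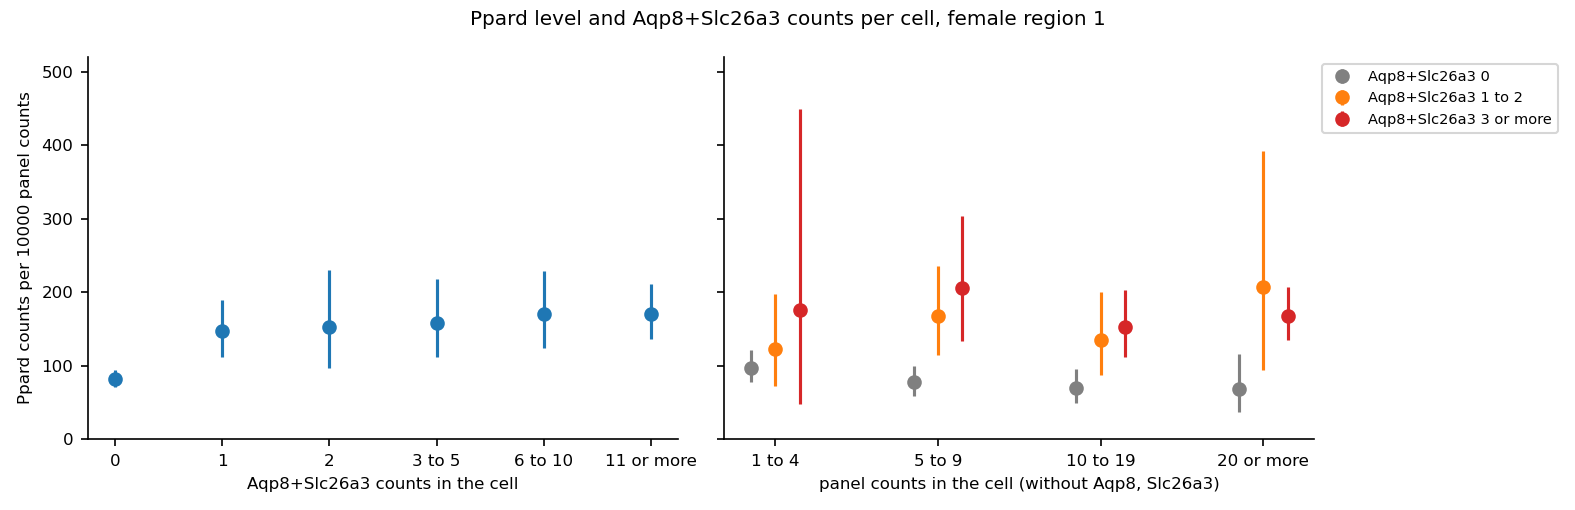
Ppard counts per 10000 panel counts in female region 1 against the Aqp8 and Slc26a3 counts of the cell (left) and in bins of panel counts per cell (right), with exact 95% Poisson intervals. The level is 81.9 at 0 marker counts and 147 to 171 at 1 or more, and the cells with 3 or more lie above those with 0 in each depth bin, with overlapping intervals only in the bin of 1 to 4.

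The size of the Ppard ratio depended on the reference. Against cells that met no marker rule it was 1.62 (1.29 to 2.03), and 1.38 (1.10 to 1.73) when the totals also left out all 8 marker genes. In both cases it stayed above 1 and fell short of the 2-fold mark. In the Cftr and Kcnn4 cells Ppard had 30 counts, at 101 against 96.7 per 10000, with a ratio of 1.04 (0.694 to 1.51), where 9.24% of 119 genes were called higher and 3.36% lower. In the fibroblast-marker cells it had 38 counts, at 87.5 against 112 per 10000, with a ratio of 0.782 (0.545 to 1.09).

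With 1 denominator for all groups (panel counts without the 8 marker genes), Ppard was at 179 per 10000 in the cells with 1 to 2 Aqp8 and Slc26a3 counts, 173 in those with 3 or more, 128 in the Cftr and Kcnn4 cells, 125 in cells of no group, 104 in the fibroblast-marker cells and 19.8 in the Des cells. The Des cells, with an interval of 4.09 to 57.9, lay apart from their neighbour in this order, the fibroblast-marker cells at 73.6 to 143. No other neighbours in the order were separated by their intervals.

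**Figure D3:**
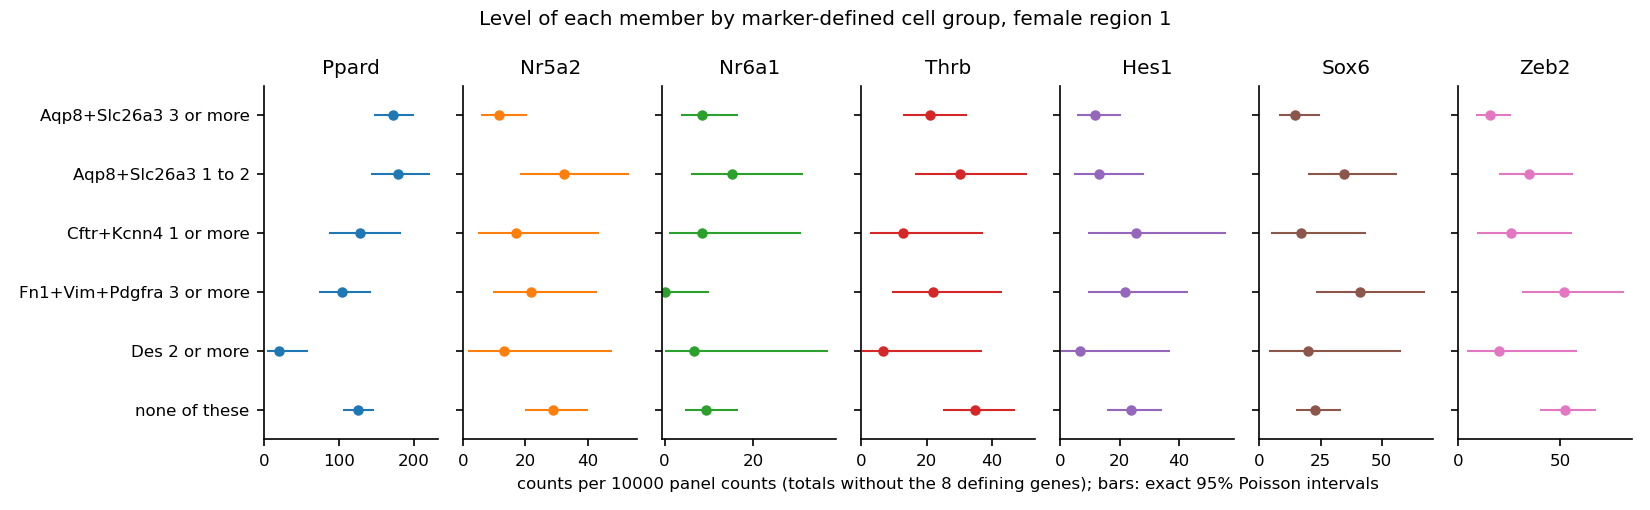
Level of each of the 7 genes in the marker-defined cell groups of female region 1, in counts per 10000 panel counts without the 8 marker genes, with exact 95% Poisson intervals and a separate horizontal scale for each gene. Ppard is lowest in the Des cells at 19.8, and Zeb2 runs from 15.7 in the cells with 3 or more Aqp8 and Slc26a3 counts to 52.4 in cells of no group.

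The other nuclear receptors were not called higher or lower in any cell group. Nr5a2 had 11, 15, 4, 2 and 8 counts in the cells with 3 or more Aqp8 and Slc26a3 counts, with 1 to 2, in the Cftr and Kcnn4 cells, the Des cells and the fibroblast-marker cells. Its ratios were 0.583, 1.40, 0.850, 0.634 and 1.05 in that order, with all intervals including 1. Its 11 and 2 counts in the first and the fourth of these groups lie under the highest blank there, at 31 and 8, and among cells meeting 1 rule against cells of no group the first ratio was 0.448 (0.198 to 0.928). Thrb had 20, 14, 3, 1 and 8 counts, with ratios of 0.994, 1.23, 0.541, 0.270 and 0.894 and intervals that likewise include 1, and was under the highest blank in the first and the fourth group and not above it in the Cftr and Kcnn4 cells. Nr6a1 had 8, 7, 2, 1 and 0 counts, under the highest blank in each of these groups. Most of these intervals reach past 2-fold in at least 1 direction, so the values do not show an even distribution.

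Hes1, the Notch target, was likewise not called in any group. It had 11 counts in the cells with 3 or more Aqp8 and Slc26a3 counts (ratio 0.656, interval 0.304 to 1.30), and 6 in those with 1 to 2 (0.630), under the highest blanks there of 31 and 8. Its 1 count in the Des cells was also under the highest blank. The 6 counts in the Cftr and Kcnn4 cells gave its highest ratio, 1.68 (0.588 to 3.91). None of the 16 other Notch pathway genes searched for is on the panel.

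Sox6 was called higher in the fibroblast-marker cells. It had 15 counts there and 57 elsewhere, or 34.5 (19.3 to 57.0) against 15.9 (12.0 to 20.5) per 10000. The ratio of 2.18 (1.14 to 3.90) stands beside 21.2% of 118 genes called higher and 7.63% lower in this comparison. In cells with at least 10 panel counts the ratio was 3.63 (1.66 to 7.67). Among cells that met this rule alone, against cells of no group, it was 2.03 (0.838 to 4.44), with an interval that included 1, and with the other marker threshold 1.84 (1.06 to 3.09). The fibroblast-marker cells held 2753 counts of their own markers beside 390 of Des, 235 of Aqp8 and Slc26a3, 33 of glial and 21 of neuronal markers. The ratios of Sox6 in the other 4 groups were 0.795, 1.60, 0.838 and 0.951, with intervals that included 1. Its 14 counts in the first of these and 3 in the Des cells lie under the highest blank. With the genes that define the groups left out of the totals, Sox6 was at 41.04 (22.97 to 67.7) per 10000 in the fibroblast-marker cells. It was at 34.5 (19.7 to 56.05) in the cells with 1 to 2 Aqp8 and Slc26a3 counts. These intervals overlap, so the call does not set the fibroblast-marker cells apart from that group.

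Zeb2 was called lower in the cells with 3 or more Aqp8 and Slc26a3 counts. It had 15 counts there and 84 in the cells with 0, or 15.3 (8.54 to 25.2) against 35.8 (28.6 to 44.4) per 10000, a ratio of 0.426 (0.228 to 0.743). The median ratio of all 115 genes in this comparison was 0.623, and 42.6% were called lower. The 15 counts lie under the 31 of the highest blank in those cells, so the level there is not distinguishable from misread barcodes. Among cells with at least 10 panel counts the call was lost, at 0.552 (0.266 to 1.11), and within the depth bins every interval included 1, with ratios of 0.771, 0.567 and 0.385 (0.103 to 1.44) in the bins of 5 to 9, 10 to 19 and 20 or more. Counted per cell, the direction turned, to 3.28 times higher (1.76 to 5.71), below the median gene at 4.79. In the fibroblast-marker cells Zeb2 had 19 counts, at 43.7 against 26.7 per 10000, a ratio of 1.64 (0.945 to 2.70). Among cells with at least 10 panel counts this was 3.19 (1.61 to 6.11), which meets the rule for higher. Other settings did not meet it. Among cells that met this marker rule alone, against cells of no group, the ratio was 1.37 (0.709 to 2.48). With the other marker threshold it was 1.47 (0.938 to 2.26). With the genes that define the groups left out of the totals, Zeb2 was at 51.98 per 10000 in the fibroblast-marker cells and 52.4 in cells of no group. On these totals Zeb2 showed no excess there over cells of no group, but its interval in the fibroblast-marker cells was wide, at 31.3 to 81.2. Its ratios in the remaining groups were 0.800, 0.784 and 0.586, with intervals that included 1, the last from 3 counts under the highest blank.

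**Figure D4:**
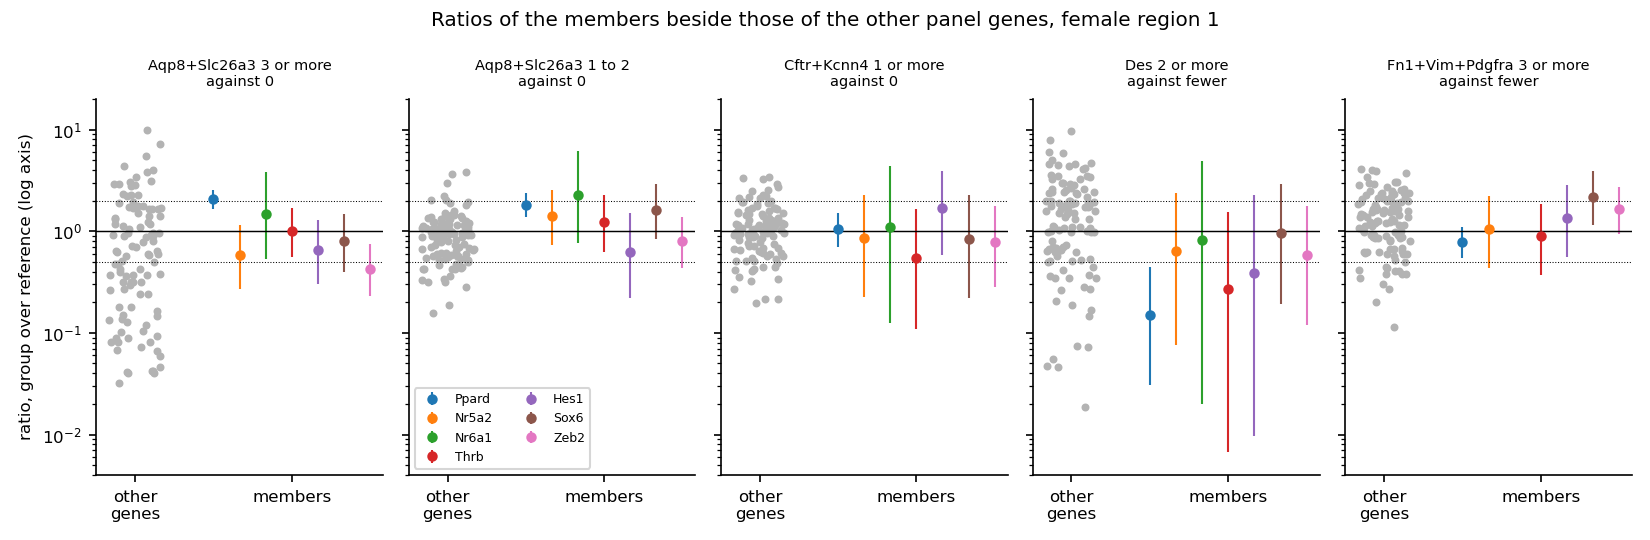
Ratio of the level in each cell group to its reference in female region 1 (log axis), for the 7 genes with exact 95% binomial intervals and for the other panel genes in grey, with dotted lines at 2 and 0.5. Past the lines with intervals without 1 lie Ppard (2.05) and Zeb2 (0.426) on the left, Ppard (0.150) in the Des cells and Sox6 (2.18) in the fibroblast-marker cells. Nr6a1 with 1 to 2 Aqp8 and Slc26a3 counts (2.26) and Thrb (0.270) and Hes1 (0.391) in the Des cells lie past them with intervals that include 1. Genes with 0 counts in a group, among them Nr6a1 in the last panel, cannot be drawn.

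Over the 7 genes, 1 was called higher and 1 lower in the cells with 3 or more Aqp8 and Slc26a3 counts, none in those with 1 to 2 or in the Cftr and Kcnn4 cells, 1 lower in the Des cells and 1 higher in the fibroblast-marker cells. Over all genes counted in these 5 comparisons, 15.7%, 5.41%, 9.24%, 17.5% and 21.2% were called higher and 42.6%, 9.91%, 3.36%, 15% and 7.63% lower. The median ratio of the 7 was 0.795, 1.40, 0.850, 0.586 and 1.05 in these groups, beside 0.623, 0.918, 1.03, 1.12 and 1.30 over all genes counted.

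Only 1 of these contrasts could be tested over both animals, since the others had fewer than 200 panel counts of grouped cells in the male. For cells with 1 to 2 Aqp8 and Slc26a3 counts against 0, edgeR's quasi-likelihood test with the animal as a block, over 98 genes, called 1.02% of genes lower and 0% higher. At an unadjusted p under 0.05 there were 2 genes, and DESeq2 called 1. None of the 6 members tested was among the genes called by edgeR. Ppard had 83 counts against 208 in the female, or 137 against 76.5 per 10000, and 1 against 18 in the male, or 29.1 against 55.3. In the male group 3 counts would already be 87.2 per 10000, so its 1 count cannot show a level below the reference. The log2 fold change was 0.35 (SE 1.03, Benjamini-Hochberg adjusted p = 0.995 in edgeR, n = 2 animals). Sox6 stood at 0.52, Zeb2 at -0.11, Thrb at -0.13, Nr5a2 at -0.20 and Hes1 at -0.82, each with an adjusted p of 0.995 in edgeR. The only gene called was Muc6, a gastric-type mucin, named after its values were seen, with 0 male counts against 4 and 1 female count against 619. Its log2 fold change was -6.996 (SE 1.77, edgeR adjusted p = 0.0144). Without Aqp8 and Slc26a3, the male group of 30 cells held 344 panel counts and the female group of 1159 cells held 6073. In the male region 0 and female region 0 parts of the group the markers go against its name. The 24 such cells of female region 0 held 27 Aqp8 and Slc26a3 counts beside 120 counts of enteric neuron markers and 17 of glial markers, and the 16 of male region 0 held 16 beside 19 and 15.

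Genes related to the set were few on the panel. Ppara, the sister receptor of Ppard, had 42 counts in female region 1, under the highest blank of 46, and was not called in any group. It had 7 counts in the cells with 3 or more Aqp8 and Slc26a3 counts, a ratio of 0.642 (0.235 to 1.52). Prdx6, an antioxidant enzyme and the only one of 11 searched PPAR and lipid genes on the panel, had 809 counts there and 196 in the cells with 0, a ratio of 9.84 (8.41 to 11.6). It was lower in the Des cells, with 1 count and a ratio of 0.0185, and also in the Cftr and Kcnn4 cells at 0.446 (0.311 to 0.622) and the fibroblast-marker cells at 0.403 (0.301 to 0.528), where Ppard was not called. Ctnnb1, which encodes beta-catenin, had ratios of 1.77 (1.60 to 1.96) with 3 or more, 1.82 (1.61 to 2.04) with 1 to 2 and 0.345 (0.234 to 0.491) in the Des cells. Prickle2, of planar cell polarity, was higher in the fibroblast-marker cells at 3.03 (2.31 to 3.96) and in the Des cells at 2.37 (1.54 to 3.50). Sox10, the glial relative of Sox6, had 23 counts in female region 1, also under the highest blank of 46. Of these, 1 lay in the cells with 3 or more Aqp8 and Slc26a3 counts and 4 in the Des cells. The 4 gave a call of higher but lie under the highest blank of the Des cells, at 8. Tgfbr3, a TGF-beta co-receptor, was lower in the cells with 3 or more Aqp8 and Slc26a3 counts, as Zeb2 was, at 0.315 (0.184 to 0.510). Tgfb2, a TGF-beta ligand, was not called in any group. Of the 9 related genes (Ppara, Prdx6, Ctnnb1, Prickle2, Sox10, Tgfbr3, Tgfb2, Fn1 and Vim), 1 was higher and 5 lower in the cells with 3 or more Aqp8 and Slc26a3 counts, where 15.7% of all genes were called higher and 42.6% lower. The counts were 1 and 0 with 1 to 2 such counts, 0 and 1 in the Cftr and Kcnn4 cells, 3 and 2 in the Des cells, and 1 and 1 of 7 in the fibroblast-marker cells, which Fn1 and Vim define.

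The profile of Ppard over the cell groups was most like that of Ctnnb1. Across 11 groups of cells in the 4 regions with at least 200 panel counts, Pearson's r of the log2 levels was 0.97 with Ctnnb1, 0.89 with Sema6a, a semaphorin, and 0.81 with Ptprk, a receptor phosphatase, as the highest of 65 genes. Over the 6 groups of female region 1 alone these were 0.99, 0.81 and 0.18. For Zeb2, Col18a1 at 0.90, a collagen, and Nrp2 at 0.80, a semaphorin co-receptor, were among the highest, with 0.83 and 0.77 in female region 1. Groups of a region share a section and a total, and the groups differ in depth, so these values describe likeness in these cells and no more.

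The genes were seldom counted in the same cell. In female region 1, 755 cells (5.51%) held any of the 7, 59 held 2 or more of the genes, and 4 held 3 or more. Over the 21 pairs there were 67 co-detections among cells with at least 2 panel counts, where cell depth alone would give 81.8. Ppard and Thrb were found together in 13 cells against 10.98, and Ppard and Zeb2 in 9 against 15.1.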

How the data were processed

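Whole-number transcript counts per segmented cell for 140 genes and 40 blank barcodes were used as the authors deposited them, with 1 table per region. The submitters' processing notes name Seurat, with settings for decoding and segmentation not given in the sources used here. The members and gene lists were chosen with earlier results of these data known. The genes named are the 7 members, the marker genes, the members of the related lists on the panel and the 3 genes most like Ppard and Zeb2 in profile, of which 1 is not reported here.

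Counts were summed over cells and divided by panel totals that leave out the genes defining a comparison. Poisson and binomial intervals are exact at 95% (Python 3.11.15, scipy 1.17.1). The deposited counts, summed per animal, were tested with edgeR 4.0.16 in R 4.3.3, for genes with at least 50 counts and groups with at least 200 panel counts in each animal, with Benjamini-Hochberg adjustment at 0.05. DESeq2 1.42.0 was an alternative. The scripts were tested on simulated data. Profiles used log2 of counts per 10000 plus 10, for genes with at least 100 counts. Both animals contribute to each tested group, which pairs the counts by animal. No cell was filtered out, and doublets were not called. Promoter windows are those of RefSeq on GRCm38.p6.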

Additional observations from a re-analysis of the deposited data

How the results depend on the processing

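Fits that needed the 4 contrasts with too few male cells were not run. The main set held the Ppard ratios, the counts of members above the blanks and the edgeR count of called genes. In it 32 alternative values stayed inside the main counting interval or near the main count, 16 moved beyond it and 2 turned. For the ratios of the other members and all log2 fold changes, 173 stayed, 31 moved and 13 turned. A ratio was counted as turned only where its main interval left out 1, and a fold change at any change of sign. Ppard in the fibroblast-marker cells, at 0.782 and per cell at 2.12, is thus among those that moved. Intervals of low counts are wide, so Ppard in the Des cells ranged up to 0.428 (other threshold) and between the male regions it was 1.72 per cell. Per cell, the median gene stood at 4.79, 2.29, 2.02, 2.60 and 3.52 in the 5 group comparisons, and many members pass 2 on that scale. Ppard counted per cell instead of per panel count gave ratios of 12.7 between the female regions, 14.2 between the animals, 15.8 in the cells with 3 or more Aqp8 and Slc26a3 counts, 4.54 with 1 to 2, 2.05 in the Cftr and Kcnn4 cells and 2.12 in the fibroblast-marker cells. In cells with at least 10 panel counts the ratio was 18.1 between the female regions, 3.71 between the animals and 0 between the male regions, which turned with 4 counts in all. Without female region 1, a choice made after seeing the data, the ratio between the animals was 0.713. For 3 or more Aqp8 and Slc26a3 counts, Ppard was at 1.59 among cells meeting 1 rule, 1.62 against cells meeting none and 1.38 with all 8 marker genes left out of the totals as well, the latter 2 also chosen after seeing the data. Another threshold for Cftr and Kcnn4 gave 1.86. Per cell, Nr5a2 between the animals turned to 2.56 and Zeb2 with 3 or more Aqp8 and Slc26a3 counts to 3.28. Apart from the counts at hand, the cause was not tested.

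The edgeR count of 1 called gene (1 to 2 Aqp8 and Slc26a3 counts against 0) was 0 with TMM factors, 5 per cell, 2 with the region as the block and 0 without the replicate block. No member was called in any of these fits. The Ppard log2 fold change turned to -0.068 with TMM factors and -0.27 with the region as the block, and that of Zeb2 to 0.19 without the replicate block. Per cell, Nr5a2 turned to 1.90, Thrb to 1.91, Hes1 to 1.08 and Zeb2 to 3.02. With 1 animal left out, which leaves values with no test, the log2 fold change ranged from -0.38 to 0.84 for Ppard, -1.97 to 0.40 for Nr5a2, -1.40 to 0.33 for Thrb, -0.58 to -0.22 for Hes1, -0.31 to 1.66 for Zeb2 and 0.67 to 0.92 for Sox6. These are plain ratios with a small constant added to each count, so they need not bracket the edgeR values. In the male each gene had 0 or 1 count in the group, so the male values show no direction. Sox6, at 0.92 in the male, had 0 counts there against 2, and Zeb2, at 1.66, had 1 against 4. Nr6a1, with fewer than 50 counts in the compared cells, was tested only without the filter on low counts. Depth limits every region other than female region 1.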

Other observations

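Enteric neurons and glia are the subject named in the study's title. Cells with at least 1 count of their markers were few, and held few counts of these genes in all 4 regions. Of the marker counts in female region 1, 51 neuronal and 57 glial counts lay in cells with 3 or more Aqp8 and Slc26a3 counts, so these groups overlap. In female region 1, 170 cells with at least 1 neuronal marker count had 16 Ppard counts. That is 56.4 per 10000 against 98.8 in the other cells, a ratio of 0.570 (0.323 to 0.937). Per cell the direction turned, with 16 counts in 170 cells beside 440 in all 13707 cells of the region. The 170 cells held 2838 panel counts besides those markers, where the region had a mean of 3.35 per cell. The neuronal markers Stmn2 and Syt1 had 27 and 35 counts there, under the highest blank of 46. The glial marker Sox10, at 23, was under it too, so misread barcodes may have picked some cells. In male region 0 the 145 cells with neuronal markers had 0 Ppard counts and the other cells 10. In female region 0 the 181 such cells had 2 against 14 elsewhere. The 220 cells with glial markers in female region 1 had 23 Ppard counts and a ratio of 0.720 (0.451 to 1.09). Their Ppard level per cell was likewise above that of the whole region. The ratios of the other genes in these cells ran from 0.593 (Zeb2) to 2.17 (Nr6a1, on 4 counts), with intervals that included 1. The 38 such cells of male region 0 had 3 Ppard counts of the region's 10, at 43.4 against 30.5 per 10000 (ratio 1.42, interval 0.238 to 6.24), and 3 Nr5a2 counts (ratio 0.997), and the 53 of female region 0 had no Ppard count. Zeb2 in female region 1 had 5 counts in the glial-marker cells (ratio 0.593, interval 0.189 to 1.43) and 6 in the neuronal-marker cells (0.832, interval 0.299 to 1.87). Sox6 had 5 and 3. With 1 section per region these are values with no test.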
